A study of Oryza sativa with 51 samples.

Results

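Of the 55986 genes listed in each RNA library, 27 had RNA levels that climbed in steps with the level of drought in rice, and these 27 stepwise genes are described here. They were chosen from their RNA levels in TPM (transcripts per 1000000, a level scaled for gene length and library size), so their RNA values are given as a description, with no test. A gene was taken if its mean under severe drought was at least 5 TPM, its lowest moderate library was at least 25% above its highest normal library, and its lowest severe library was at least 25% above its highest moderate library. Genes under 1 TPM in all 3 normal libraries were left out.

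RNA was sequenced from Zhonghua11, a wild type rice line, at the 4-leaf stage, in 3 groups of 3 libraries. The plants were watered normally or held in slowly drying soil until its relative water content reached about 20% (moderate drought) or about 10% (severe drought). The histone mark H2Bub1, monoubiquitinated histone H2B, was profiled by chromatin immunoprecipitation in Zhonghua11 under the same conditions, and in osbzip46 mutant and wild type plants under drought and normal water, with 3 libraries per group. The labels give neither the tissue of the RNA libraries, nor the osbzip46 allele, nor the soil water of the drought used for the mutant. They also do not say that replicates came from separate plants, so the spread between libraries may be technical.

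A plant in drying soil passes through grades of water deficit. Abscisic acid (ABA) builds up, its signalling sets off genes that protect cells, and as the deficit deepens older leaves break down their chlorophyll and export nutrients. A gene can therefore respond fully to the first deficit, or go on climbing as the soil dries further, and the rule picks genes of the second kind. H2Bub1 marks transcribed gene bodies and is set in plants by the HUB1 and HUB2 ubiquitin ligases.

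Severe replicate 3 stood apart from all other libraries. Its correlation, over log2(TPM + 1) of the tested genes, was 0.955 and 0.944 with severe replicates 1 and 2, against 0.993 between these. It was 0.936 to 0.944 with moderate and 0.806 to 0.824 with normal libraries. Normal libraries correlated with moderate libraries and with severe replicates 1 and 2 at 0.867 to 0.898. Severe replicates 1 and 2 correlated with the moderate libraries at 0.986 to 0.992, and moderate libraries with each other at 0.989 to 0.992. Libraries implied 8.30 to 10.7 Gb of aligned bases and held 19185 to 20012 genes at 1 TPM or more. Marker genes moved with the groups as well. The summed level of 4 mesophyll genes (2 Rubisco small subunit genes, CAB2R and RCA) was 14172 to 18689 TPM in normal libraries, 5037 to 6688 TPM in moderate libraries, 5421 and 6668 TPM in severe replicates 1 and 2, and 2627 TPM in severe replicate 3. RCA alone did not share the lower level in moderate drought, with 1706 to 2359 TPM in moderate against 1940 to 2175 TPM in normal libraries, 2075 and 2629 TPM in severe replicates 1 and 2, and 929 TPM in severe replicate 3. The summed level of 4 root markers was 14.0 to 23.3 TPM in every library. Lsi1 made up most of it, at 11.1 to 21.7 TPM, while Lsi2, a silicon exporter of roots, was at 0 in 8 libraries. The other root markers moved in opposite directions. HKT2;1 had means of 0.114, 2.23 and 2.16 TPM in normal, moderate and severe libraries, and IRT1 1.65, 0.272 and 0.155 TPM. The summed level of 2 meristem markers was at most 0.0312 TPM. Of 2 pathogen response markers, PR1a reached 9.90 TPM in severe replicate 3 against at most 0.525 TPM elsewhere. PBZ1 was at 172 TPM there against 323 and 558 TPM in severe replicates 1 and 2. That value lay within the spread of the normal libraries, 120 to 477 TPM, and moderate libraries had 225 to 504 TPM. The part of these differences in the results was not tested. In bulk libraries, fewer cells of a type and less RNA per cell cannot be told apart.

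The second step was the rare one. Among the 14784 genes with a mean severe level of 5 TPM or more and at least 1 TPM in a normal library, 4807 (32.5%) met the first step, from normal water to moderate drought. The second step, from moderate to severe drought, was met by 77 (0.521%), and both by 27 (0.183%). Another 14 genes met both steps but had under 1 TPM in all normal libraries. All 27 members were among the 20642 genes that reached 1 TPM in 3 or more libraries, called tested genes here.

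**Figure D1:**
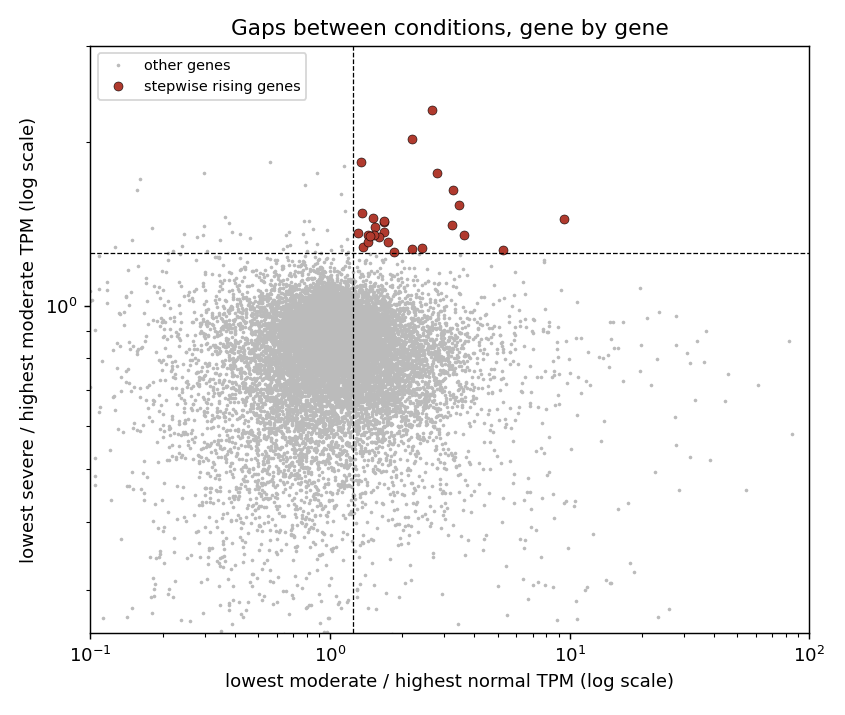
Each point is a gene with a mean severe level of at least 5 TPM and at least 1 TPM in a normal library. The horizontal axis gives its lowest moderate over its highest normal level and the vertical axis its lowest severe over its highest moderate level, both on log scales with dashed lines at the limit of 25% above. The 27 stepwise genes lie in the upper right corner, most of them close to the line of the second step. The axes leave out 150 of the 14784 genes.

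In a fit across all tested genes with limma, 12040 (58.3%) differed between moderate drought and normal water, 8133 (39.4%) of them higher. Between severe and moderate drought 3 (0.0145%) differed, and 2582 had an unadjusted p under 0.05. Of the 27 members, 16 were called in moderate against normal and 0 in severe against moderate, where their lowest adjusted p was 0.207. The rule used both contrasts, and nothing is read from these member counts. Leaving out severe replicate 3 gave 11 genes between severe and moderate drought.

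The median over the 27 members of the mean level was 2.70 TPM under normal water, 7.82 TPM in moderate drought and 30.9 TPM in severe drought. Over the 20634 tested genes above 0 in the severe libraries the corresponding medians were 11.7, 14.2 and 14.6 TPM. With severe replicates 1 and 2 alone the severe median was 13.2 TPM over the members and 14.1 TPM over those tested genes. The ratio of mean severe to mean normal level was 2.09 to 60.4 over the members, with a median of 7.23, beside a median of 1.2 over the 20618 of these that were above 0 under normal water. With severe replicates 1 and 2 alone it was 1.88 to 18.7, with a median of 3.95.

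**Figure D2:**
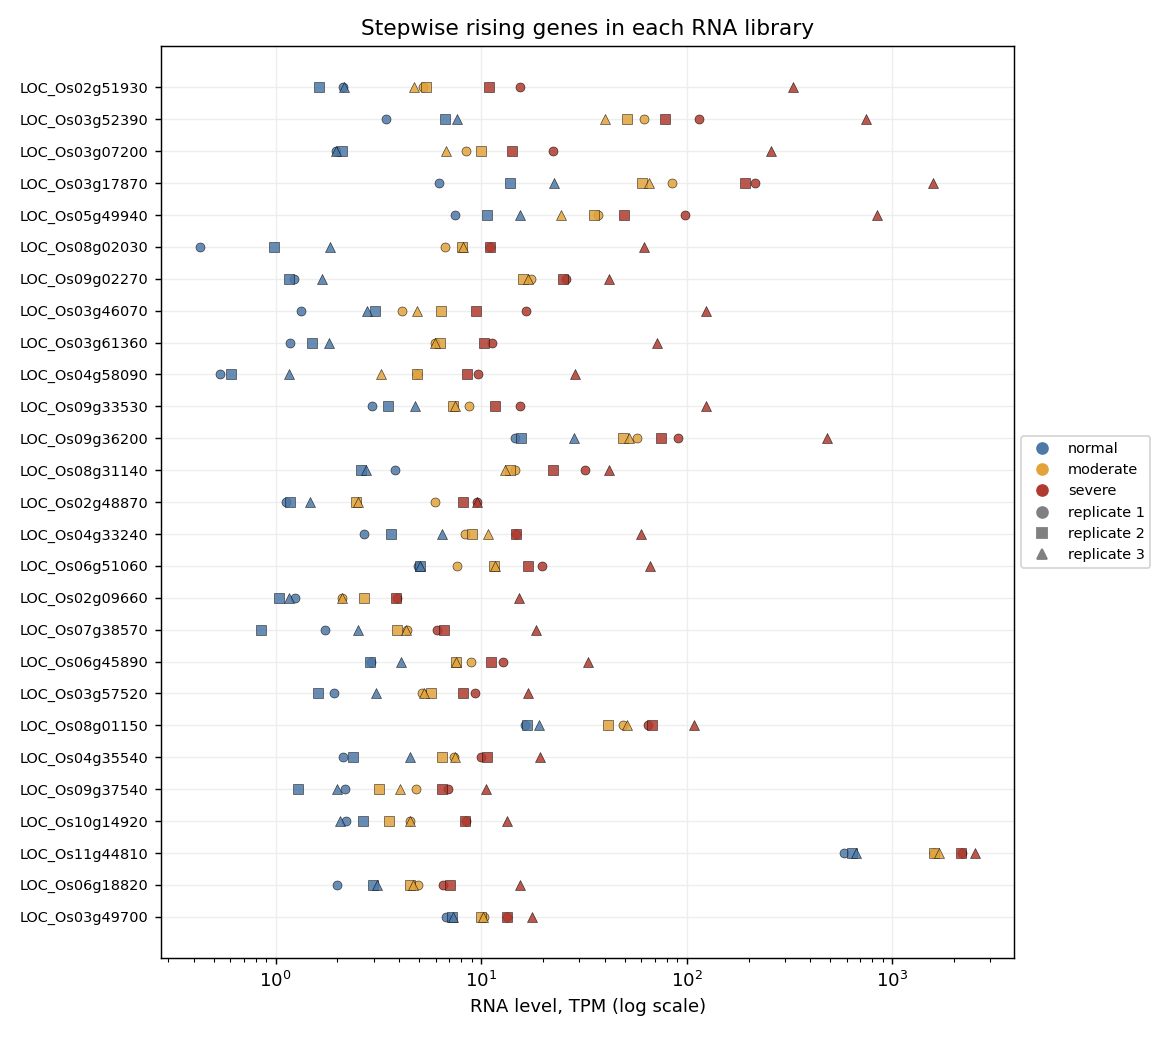
RNA level of each of the 27 stepwise genes in each of the 9 libraries, in TPM on a log scale, ordered by the ratio of mean severe to mean normal level (largest at the top). Colours mark the condition and shapes the replicate. In every gene the 3 normal, 3 moderate and 3 severe points follow each other with no overlap, as the rule requires, and the severe replicate 3 triangle lies far to the right in the upper rows.

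The size of the second step differed with severe replicate 3. Moderate over normal was 1.44 to 12.3 times (median 2.60), and severe over moderate 1.40 to 23.3 times (median 3.16). With severe replicates 1 and 2 alone, severe over moderate was 1.31 to 2.90 times (median 1.68). The second step was larger than the first, as log2 ratios of means, in 14 of 27 members with all libraries and in 2 of 27 without severe replicate 3. Those 2 were LOC_Os03g46070, with log2 ratios of 1.34 for the second step and 1.11 for the first, and LOC_Os10g14920, with 0.99 and 0.87. Neither of them met the rule after median-of-ratios scaling. Without that library the first step was thus the larger one in most members, in TPM. Over tested genes the median was 1.17 times for moderate over normal. For severe over moderate it was 1.00, with or without severe replicate 3. The first step thus holds a shift shared by many genes that the second does not. Which step was larger was not compared after median-of-ratios scaling.

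**Figure D3:**
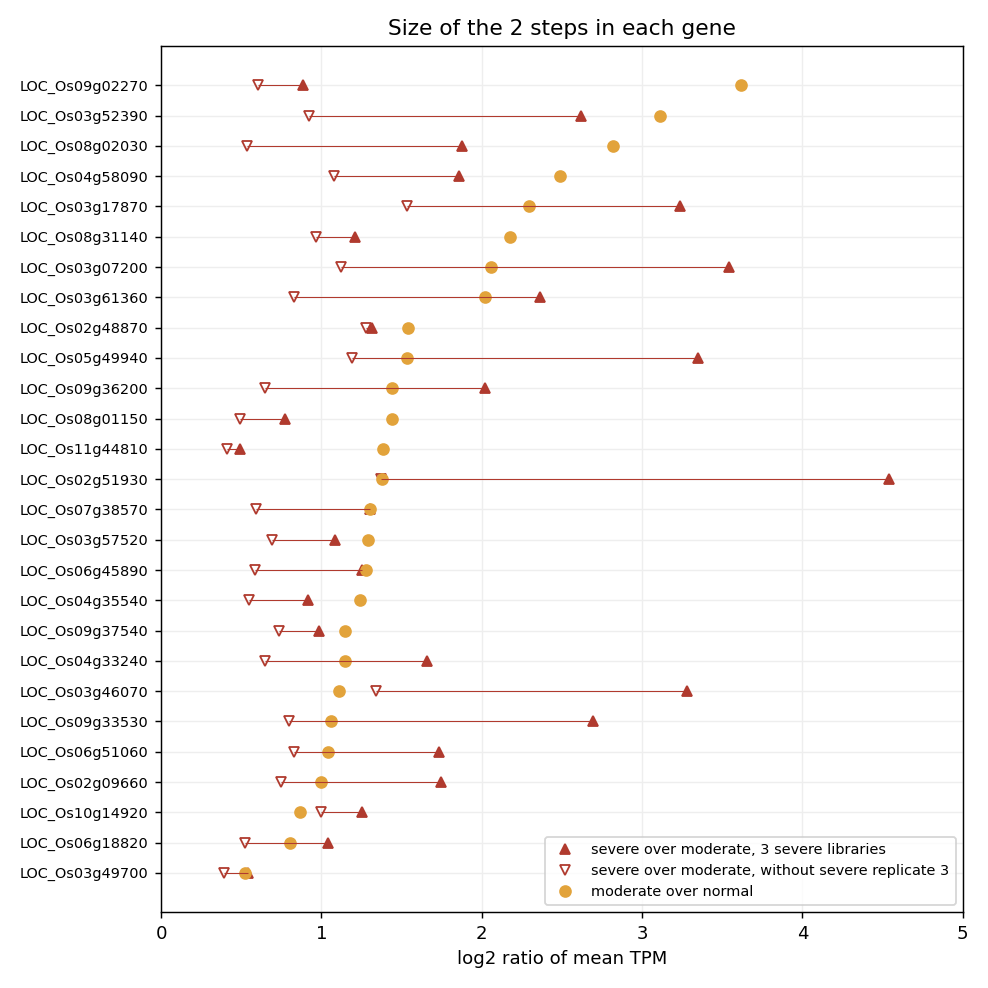
Log2 ratio of mean TPM for both steps in each of the 27 genes, ordered by the first step. Filled triangles give severe over moderate with all 3 severe libraries, open triangles the same without severe replicate 3, joined by a line, and circles moderate over normal. Without severe replicate 3 the second step lies left of the circle in all but 2 genes, and LOC_Os02g51930 moves farthest along its line.

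Severe replicate 3 held the highest severe level in 26 of the 27 members, against 43.8% of those 20634 tested genes. In the remaining one, LOC_Os02g48870, severe replicates 1 and 3 were at 9.53 and 9.52 TPM. The level in severe replicate 3 was more than 5 times the higher of severe replicates 1 and 2 in 10 members, more than 2 and up to 5 times in 7, and up to 2 times in 10. Among all tested genes 246 lay more than 5 times above. Severe replicate 2 was the lowest severe library in 22 members and severe replicate 1 in 5. Under normal water replicate 3 was the highest in 20 of 27 members, against 59.2% of tested genes.

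**Figure D4:**
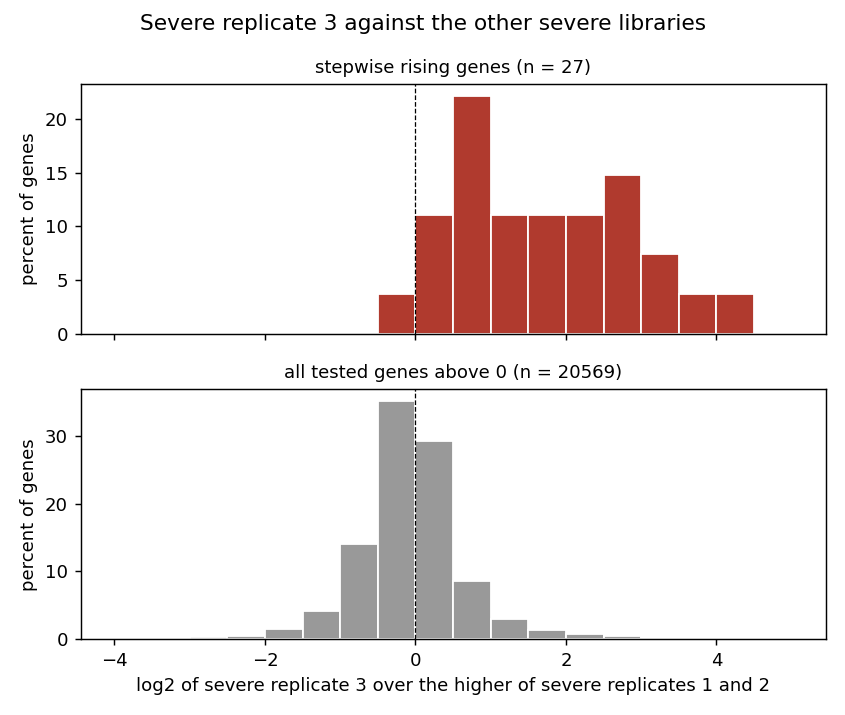
Distribution of the log2 ratio of severe replicate 3 to the higher of severe replicates 1 and 2, for the 27 stepwise genes (top) and all tested genes above 0 both in severe replicate 3 and in at least one of the others (bottom), as percent of genes in bins of 0.5. The stepwise genes spread from about 0 to the right, while the tested genes centre close to 0.

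The summed level of the 27 members shows the same contrast. It was 676, 749 and 820 TPM in the normal libraries, 2046, 1989 and 2077 TPM in the moderate libraries, and 3051, 2865 and 7675 TPM in the severe libraries. LOC_Os11g44810 makes up most of it everywhere but in severe replicate 3. The members' median level is less tied to one gene: 2.17, 2.66 and 3.08 TPM in normal, 7.63, 7.53 and 7.50 TPM in moderate, and 14.8, 11.2 and 59.8 TPM in severe libraries.

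SGR (LOC_Os09g36200, chromosome 9, 20868717 to 20871108, minus strand) was the single member found in the lists of known genes, and the only one whose function can be named here. It encodes STAY-GREEN, which removes magnesium from chlorophyll and so starts its breakdown in ageing leaves. SGR had 14.7, 15.6 and 28.2 TPM under normal water, 57.1, 49.3 and 52.6 TPM in moderate drought and 91.2, 74.7 and 480 TPM in severe drought. Every library of a drier group was above every library of the wetter one, and severe replicate 3 was 5.27 times the next highest. Its means were 19.5 ± 7.57, 53.0 ± 3.92 and 215 ± 230 TPM (SD, n = 3 each). Severe over normal was 11.1 times, or 4.26 times without severe replicate 3.

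SGR was also the only member with a changed H2Bub1 region in the authors' deposited tables, a measure that the rule did not use. In the authors' deposited table for moderate drought, a region at chromosome 9, 20870101 to 20870600, had a log2 concentration of 5.65 in moderate drought and 1.34 under normal water. The authors' deposited log2 fold change was 4.31, with a p-value of 0.000213 and a false discovery rate (FDR) of 0.00163. The region carries the authors' label "Promoter (<=1kb)", but lies wholly inside the gene model, with its near edge 508 bases downstream of the start. Among the 1395 regions of that table it ranked 32 by fold change and 764 by FDR, in a table where 224 regions were higher and 1171 lower. The authors combined replicates, so no spread between libraries can be given for it. Known genes that met the first step only also had a higher region in moderate drought. These were the ABA phosphatase genes PP2C51 (log2 fold change 6.44) and PP2C30 (4.1) and the ABA bZIP factor gene bZIP23 (1.49). In severe drought the known genes with a region had it lower: PP2C06 (−1.12), PP2C08 (−1.59), HUB2 (−1.05) and bZIP23 (−1.17).

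One member of 27 with a higher region is to be read against 1.03% of tested genes that have one in moderate drought, and 6.11% that have a region in either direction. A region with lower H2Bub1 was listed for 0 members, beside 5.09% of tested genes in moderate and 3.62% in severe drought. In the authors' deposited table for severe drought, with 886 regions, 0 members had a region, beside 4.02% of tested genes, and SGR itself was not listed. The osbzip46 mutant tables, which compare the mutant with wild type plants in drought, listed 0 members as well, beside 2.25% of tested genes for 522 regions and 6.0% for a table of 1265 genes. No other region of these tables lay within 1000 bases of a member. The Zhonghua11 tables list only regions with an FDR of at most 0.0499, so an absent gene had no region past that limit, and its H2Bub1 level is not known here. The 522 mutant regions had FDRs of up to 0.975, so they are not changes held to a like limit.

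The other genes of chlorophyll breakdown were not members. The list holds SGR, NYC1, which converts chlorophyll b, NYC3, which acts on the pigment after the magnesium is removed, PAO, which opens the ring, and RCCR, which reduces the product. Of the 4 besides SGR, 3 rose in moderate drought against normal water and 0 fell in limma, beside 39.4% of all tested genes called higher. RCCR rose by 1.86 ± 0.28 (SE, log2; adjusted p = 0.000602), PAO by 1.26 ± 0.26 (adjusted p = 0.00299) and NYC3 by 1.16 ± 0.37 (adjusted p = 0.0237). The median of all tested genes was 0.20 in this comparison and −0.01 after median-of-ratios scaling. NYC3 lost its call after that scaling (adjusted p = 0.0555) and after quantile normalization (0.0596), and in 5 of the 6 fits without 1 of the libraries compared (0.0548 to 0.0757), but not without normal replicate 3 (0.0342).

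NYC1, the chlorophyll b reductase, was lower in moderate drought. It had 260, 287 and 255 TPM in moderate libraries against 549, 634 and 559 TPM in normal libraries, at a log2 change of −1.12 ± 0.44 with adjusted p = 0.0553 in limma. That call was made after median-of-ratios scaling (adjusted p = 0.0283), without severe replicate 2 (0.0356), without severe replicate 3 (2.6e-06) and in a fit of the 6 libraries compared (6.35e-06). In severe drought NYC1 had 296, 258 and 1022 TPM. None of the 4 was called between severe and moderate drought, with a lowest adjusted p of 0.514 in limma. SGR was chosen by its rise over this step, so no test is given for it. Whether its second step differed from theirs was not tested. Each of the 5 genes had its highest level of all 9 libraries in severe replicate 3, where PAO was at 236 TPM, RCCR at 311 TPM and NYC3 at 581 TPM.

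**Figure D5:**
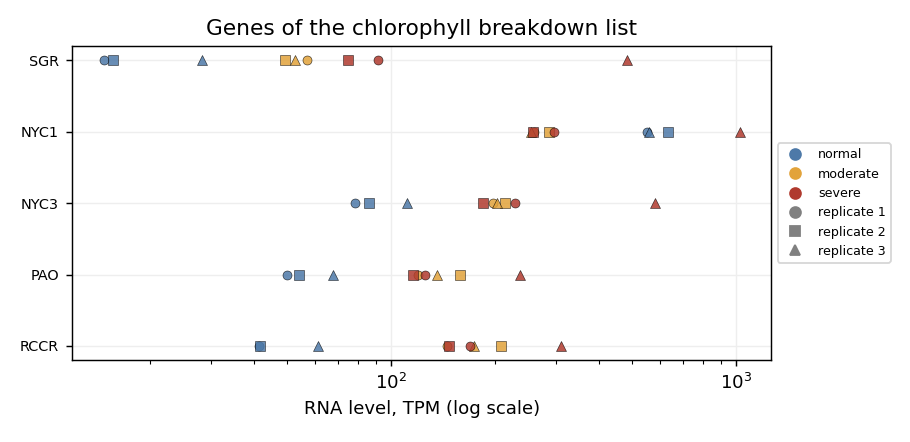
RNA level of the 5 genes of the chlorophyll breakdown list in each of the 9 libraries, in TPM on a log scale, with colours for the condition and shapes for the replicate. SGR alone has 3 separate groups in the order normal, moderate, severe, and severe replicate 3 is the rightmost point in every row.

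Of 57 known genes in 8 lists on the ABA and drought response, chlorophyll breakdown and H2B ubiquitination, 1 (SGR) was a member, 30 met the first step only, 17 met neither step, and 9 had a mean severe level under 5 TPM. Among the 14784 genes above, 0.183% were members and 32.5% met the first step. Those genes had at least 1 TPM in a normal library, which the list counts of the first step did not require. Without that minimum, 5033 of 15037 genes with a mean severe level of 5 TPM or more met the first step. PP2C51, NCED4, NAC10, RAB16B, LEA3-1, LEA3-2 and WSI18 met it but were under 1 TPM in all normal libraries. They could not be members, whatever their second step. Among 9 ABA phosphatase genes, which hold ABA signalling in check, 7 met the first step only, as did 7 of 10 dehydrin and late embryogenesis abundant (LEA) genes and 4 of 6 ABA bZIP factor genes. RAB16A, a dehydrin gene picked after its values were seen, shows how a strong response can miss the rule. It had 0.271, 1.91 and 1.33 TPM under normal water, 363, 598 and 304 TPM in moderate drought and 597, 295 and 3198 TPM in severe drought, so that severe replicate 2 lay below all moderate libraries. In limma 8 of 9 ABA phosphatase genes and 6 of 8 tested dehydrin and LEA genes rose in moderate against normal, beside 39.4% of all tested genes. In severe against moderate 0 of either list was called, beside 0.0145% of all tested genes. The loci of these lists were paired with names by hand, and 40 of the 57 names were found on the same chromosome in the RefSeq gene table.

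The 26 members besides SGR carry no description in the tables used here and are given by locus. The 10 largest ratios of severe to normal level all reached at least 20. LOC_Os02g51930 (chromosome 2, 31805977 to 31807891, plus strand) had 2.13, 1.62 and 2.14 TPM under normal water, 5.21, 5.39 and 4.70 TPM in moderate drought and 15.5, 10.9 and 329 TPM in severe drought. Its ratio of 60.4 was the largest of the members but was 6.72 without severe replicate 3, whose level was 21.3 times the next. Both of its steps were then about the same size in TPM, at 2.60 and 2.59 times.

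LOC_Os03g52390 (chromosome 3, 30078324 to 30078929, plus strand) had 3.45, 6.66 and 7.63 TPM under normal water, 61.9, 51.1 and 40.2 TPM in moderate drought and 115, 78.2 and 748 TPM in severe drought. Its log2 ratios were 3.11 for the first step and 2.62 for the second, or 0.92 for the second without severe replicate 3. LOC_Os03g17870 (chromosome 3, 9957429 to 9958013, plus strand) had 6.26, 13.9 and 22.7 TPM, then 84.5, 60.3 and 65.6 TPM, then 214, 193 and 1578 TPM in the same order. Without severe replicate 3 its second step was the largest of all members, at 2.90 times, and its lowest severe library was 2.29 times its highest moderate one. LOC_Os05g49940 (chromosome 5, 28647465 to 28648244, plus strand) had 7.44, 10.7 and 15.4 TPM under normal water, 37.1, 35.3 and 24.6 TPM in moderate drought and 97.9, 49.5 and 841 TPM in severe drought. In all of these the severe level was higher in replicate 1 than in replicate 2, by most in LOC_Os05g49940.

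LOC_Os03g07200 (chromosome 3, 3682881 to 3685310, minus strand) had 1.97, 2.1 and 1.97 TPM under normal water, 8.42, 10.0 and 6.73 TPM in moderate drought and 22.4, 14.1 and 257 TPM in severe drought. Its model shares 437 bases with LOC_Os03g07190 on the opposite strand, which had 231 to 269 TPM in normal, 319 to 462 TPM in moderate and 274 to 583 TPM in severe libraries. Reads from these genes cannot be told apart where the models overlap, unless the counting used strand, which the sources used here do not state. The overlapping gene did not have the stepwise order, since severe replicates 1 and 2 (313 and 274 TPM) lay below its moderate libraries.

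LOC_Os09g02270 (chromosome 9, 920565 to 926016, minus strand) shows the pattern with the least help from severe replicate 3 among the large ratios. It had 1.23, 1.17 and 1.69 TPM under normal water, 17.4, 15.9 and 16.9 TPM in moderate drought and 25.8, 25.1 and 41.7 TPM in severe drought. Severe over normal was 22.7 times, and 18.7 times without severe replicate 3, the largest of the members on that measure. Its first step of 12.3 times was also the largest, and its lowest moderate library was 9.44 times its highest normal one.

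Another 4 genes complete the 10 largest ratios. LOC_Os08g02030 had 0.428, 0.984 and 1.84 TPM under normal water, 6.64, 8.11 and 8.20 TPM in moderate drought and 11.1, 11.1 and 62.3 TPM in severe drought. LOC_Os04g58090 had 0.536, 0.610 and 1.16 TPM, then 4.86, 4.87 and 3.25 TPM, then 9.70, 8.55 and 28.7 TPM in the same order. Both had a single normal library over 1 TPM, replicate 3, and without it neither met the rule. LOC_Os03g46070 had 1.33, 3.04 and 2.77 TPM under normal water, 4.11, 6.37 and 4.90 TPM in moderate drought and 16.5, 9.40 and 124 TPM in severe drought. LOC_Os03g61360 had 1.17, 1.51 and 1.82 TPM, then 5.96, 6.31 and 5.93 TPM, then 11.3, 10.3 and 72.0 TPM in the same order. Its moderate libraries differed by less than 1 TPM, and severe replicates 1 and 2 were close to each other as well.

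By level, LOC_Os11g44810 (chromosome 11, 27116364 to 27118009, minus strand) was far above the rest. It had 581, 635 and 664 TPM under normal water, 1606, 1603 and 1697 TPM in moderate drought and 2187, 2162 and 2542 TPM in severe drought. Its libraries agreed closely within each group, with means of 627 ± 42.1, 1635 ± 53.3 and 2297 ± 213 TPM (SD, n = 3 each), and severe replicate 3 was 1.16 times the next. LOC_Os08g01150 (chromosome 8, 102127 to 107380, plus strand) lay at a lower level. It had 16.3, 16.8 and 19.0 TPM, then 48.8, 41.6 and 51.3 TPM, then 65.0, 68.1 and 109 TPM in the same order. Its severe libraries agreed less closely, with severe replicate 3 at 1.59 times the next. LOC_Os09g33530 (chromosome 9, 19775290 to 19780676, minus strand) had 2.96, 3.53 and 4.77 TPM under normal water, 8.69, 7.27 and 7.50 TPM in moderate drought and 15.5, 11.7 and 125 TPM in severe drought. In all, 6 members had a mean severe level of 100 TPM or more, 10 lay from 20 to under 100 TPM and 11 under 20 TPM.

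The 10 members in which severe replicate 3 was at most 2 times the next severe library depend least on it. They include LOC_Os09g02270, LOC_Os11g44810 and LOC_Os08g01150, and their ratio of severe to normal level was 2.09 to 22.7 (median 4.55), or 1.88 to 18.7 (median 3.76) without severe replicate 3. In the 10 members where it was over 5 times the next, SGR among them, the ratio was 11.1 to 60.4 (median 27.7) with all libraries and 3.62 to 16.4 (median 6.97) without. LOC_Os08g31140 of the first set had 3.79, 2.60 and 2.77 TPM under normal water, 14.6, 13.9 and 13.1 TPM in moderate drought and 31.9, 22.3 and 41.9 TPM in severe drought. LOC_Os03g49700 had the smallest ratio of all members, 2.09, with 6.76, 7.20 and 7.28 TPM, then 10.4, 9.97 and 10.2 TPM, then 13.3, 13.4 and 17.7 TPM. Its groups were small steps apart. The normal and moderate groups were tight, with an SD of 0.280 TPM under normal water and 0.203 TPM in moderate drought. The severe group was wider, with an SD of 2.54 TPM (n = 3 each).

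Values close to the limit were alike on both sides of it. Just inside, the smaller of both gaps was 1.253 for LOC_Os06g45890, 1.264 for LOC_Os03g52390 and 1.269 for LOC_Os08g01150, in each case the gap between severe and moderate libraries. Just outside it was 1.245 for LOC_Os05g49100, 1.243 for LOC_Os09g29660 and 1.238 for LOC_Os06g38660. LOC_Os06g38660 had 1.99, 2.08 and 3.29 TPM under normal water, 17.0, 11.5 and 17.0 TPM in moderate drought and 29.6, 21.1 and 98.3 TPM in severe drought, a course like that of many members. Over all members the gap between normal and moderate libraries was 1.31 to 9.44 (median 1.69) and that between moderate and severe libraries 1.253 to 2.29 (median 1.36).

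The remaining members had mean severe levels of 7.71 to 34.2 TPM. LOC_Os04g33240, LOC_Os06g51060, LOC_Os06g45890, LOC_Os02g09660, LOC_Os07g38570 and LOC_Os06g18820 had severe replicate 3 at 2.20 to 4.04 times the next severe library. LOC_Os03g57520, LOC_Os04g35540, LOC_Os09g37540, LOC_Os10g14920 and LOC_Os02g48870 had it at 1.00 to 1.82 times. LOC_Os02g48870 differed from the others in its moderate libraries, at 5.97, 2.46 and 2.51 TPM, below 8.14 to 9.53 TPM in severe and above 1.12 to 1.47 TPM in normal libraries. LOC_Os10g14920 had the widest gap of these between severe and moderate libraries, 1.84 times, with 8.44, 8.33 and 13.3 TPM in severe against 4.53, 3.57 and 4.51 TPM in moderate drought.

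The members lay on 10 chromosomes, 15 on the plus and 12 on the minus strand, with 7 on chromosome 3 and 4 on chromosome 9. Their models were short: spans were 267 to 6508 bases with a median of 1915, beside 3358 for all tested genes. The lowest coverage of a member in any library was 2.74 reads per base (median over members 9.76), so even the thinnest values rest on several reads per base.

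Some members had neighbours of the same pattern among the 14 genes left out for low normal levels. LOC_Os03g52370, LOC_Os03g52380 and the member LOC_Os03g52390 lie side by side on chromosome 3, with 613 and 1278 bases between them and no other model. LOC_Os03g52370 had 0.249, 0.679 and 0.744 TPM under normal water, 8.92, 6.47 and 5.92 TPM in moderate drought and 19.9, 11.6 and 130 TPM in severe drought. LOC_Os03g52380 had 0.157, 0.628 and 0.458 TPM, then 5.13, 4.44 and 3.17 TPM, then 10.9, 9.44 and 66.8 TPM in the same order. In all 3 genes the libraries kept the same order within moderate drought (replicate 1 highest) and within severe drought (replicate 3 highest, replicate 2 lowest). This order was common among the members. Moderate replicate 1 was the highest moderate library in 14 of 27, severe replicate 3 the highest severe library in 26, and severe replicate 2 the lowest in 22. Whether reads are shared between these neighbours was not tested. LOC_Os03g17870 has LOC_Os03g17810 at 40142 bases and LOC_Os03g18030 at 80826 bases, and LOC_Os03g61360 has LOC_Os03g61270 at 31611 bases, with other models between.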

How the data were processed

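The authors' deposited RNA tables give TPM, FPKM (fragments per kilobase of gene and per 1000000 fragments) and coverage (reads per base) for each gene and library, per the file headers. Values of repeated gene rows were summed. The authors' deposited H2Bub1 tables give log2 concentrations per condition, a log2 fold change and, for each region, a p-value with its FDR, with replicates combined, per the file headers. Per the submitters' processing notes, HISAT2 2.0.5, Bowtie2 2.3.4, MACS2 2.1.1 and DESeq2 1.20.0 were used, with no role stated. No source used here names the genome build; positions are as in the files.

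The rule was applied to TPM in Python 3.11.15. Background fits used limma 3.58.1 (R 4.3.3, statmod 1.5.0) on log2(TPM + 1), a scale that understates changes of low genes, with trend and robust settings. All 9 libraries entered 1 fit, tests were two-sided, with Benjamini-Hochberg adjustment over 20642 genes and a threshold of 0.05. The fit was tested on simulated data with the same spread in every library. That simulation does not cover a library that stands apart, as severe replicate 3 does here. An exact permutation test of 3 against 3 libraries cannot go below 0.10. The depth in aligned bases was inferred from coverage divided by FPKM.

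The members and the gene lists were chosen with earlier results of these data known. Members named with their values are those in a gene list, the 10 largest ratios, the 10 highest severe means, those with an H2Bub1 region and the 3 just inside the limit. LOC_Os08g31140, LOC_Os03g49700, LOC_Os02g48870 and LOC_Os10g14920 were added after their values were seen. No gene descriptions, promoters or protein sequences were used here.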

Additional observations from a re-analysis of the deposited data

How the results depend on the processing

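The number of stepwise genes depends on the limits chosen: 137 with steps of 1.1 times, 5 with steps of 1.5 times and 41 with no minimum in the normal libraries. Leaving out 1 library gave 28 to 103 genes, with 57 without moderate replicate 1, 46 without moderate replicate 2 and 103 without severe replicate 2. Without severe replicate 3 there were 37, of which 26 were among the 27, LOC_Os02g09660 being lost. With FPKM there were 28, of which 24 were shared, and after median-of-ratios scaling 24, of which 21 were shared. That scaling lost LOC_Os03g46070, LOC_Os03g49700, LOC_Os04g33240, LOC_Os06g51060, LOC_Os09g37540 and LOC_Os10g14920. The median log2(TPM + 1) difference of the members between severe drought and normal water was 2.55, beside 0.23 for all tested genes, and 1.88 to 2.88 without 1 library. The second step exceeded the first in 14 members, and in 2 to 18 without 1 library. The 11 genes added without severe replicate 3 included 1 with a region in the authors' deposited table for severe drought, LOC_Os01g47330, with a log2 fold change of −1.3. The settings for the second step, for severe replicate 3 and for the mutant tables were chosen after seeing the data.

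Genes called between severe and moderate drought numbered 3, and 1 with no filter on low values or median-of-ratios scaling, and 1 to 11 without 1 library. For moderate against normal 10226 to 14313 were called without 1 library. Its split was 8133 higher and 3907 lower, but 5690 and 5780 after quantile normalization and 5721 and 5865 after median-of-ratios scaling. With the replicate number as a block, 1 gene was called between severe and moderate drought and 11781 between moderate and normal. Deviations from group means correlated at −0.257 to 0.143 between same-numbered libraries and at −0.156 to 0.224 between others. These ranges overlap and show no pairing by number, but with 3 libraries a group they cannot exclude it. The cause of these differences was not tested. Single-member values were the log2(TPM + 1) differences between severe drought and normal water. Under other settings 287 stayed within 1 SD of the severe libraries, 10 moved by more and 0 changed sign. Leaving out a moderate library could not change them, and the SD includes severe replicate 3. The rule put every severe library above every normal one, so leaving out a library could not change a sign. Nothing is read from these counts. Alternatives on promoter motifs were not run, as no promoter sequences were used. With 3 libraries a group and 1 of them standing apart, the size of the second step rests largely on that library.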

Other observations

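The rule turned round, with a mean of at least 5 TPM under normal water and the same gaps downwards, found 11 genes with at least 1 TPM in a severe library. With no such minimum it found 17, of which 2 were listed at 0 in all moderate and severe libraries and so show no second gap. Of these, LOC_Os10g21190 had 46.2, 0 and 0 TPM under normal water and so shows no first gap either. None of the 17 carries a description in the tables used here. LOC_Os08g28670 was the most abundant of them under normal water, with 207, 181 and 165 TPM there, 9.57, 9.13 and 11.1 TPM in moderate drought and 5.17, 6.78 and 3.38 TPM in severe drought. LOC_Os01g23990 had 154, 168 and 178 TPM under normal water, 37.2, 38.5 and 38.3 TPM in moderate drought and 20.0, 24.0 and 21.3 TPM in severe drought. In LOC_Os01g23990 severe replicate 3 lay between the other severe libraries, and in LOC_Os08g28670 it was the lowest. In the authors' deposited tables, 1 gene of the 17 had a region with lower H2Bub1 in moderate drought and 1 in severe drought, beside 5.09% and 3.62% of all tested genes, and 0 of the 11 had one in either table.

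Outside the stepwise genes, 3 genes passed the threshold between severe and moderate drought in limma. LOC_Os12g37415 had 410, 408 and 269 TPM in severe drought against 0.192, 0.195 and 0.209 TPM in moderate drought, a log2 difference of 8.22 ± 0.15 (SE; adjusted p = 5.72e-08), with 0.184 to 0.228 TPM under normal water. It was left out of the stepwise set because it has under 1 TPM in normal libraries and no first step. LOC_Os03g16140 was higher in severe drought (log2 difference 1.11 ± 0.12, adjusted p = 0.0464) and LOC_Os08g02210 lower (−0.99 ± 0.10, adjusted p = 0.0464). Each of these 2 calls was lost in 12 of 15 other settings, and over all 15 adjusted p ran from 0.00356 to 0.366 for LOC_Os03g16140 and from 0.00404 to 0.366 for LOC_Os08g02210. LOC_Os12g37415 was called in all 15 (highest adjusted p = 5.51e-05).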
